A study of Mesocricetus auratus with 14 samples.

Results

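Cells keep cholesterol either free in membranes or esterified to a fatty acid for storage, and they release it to high-density lipoprotein (HDL) or, in the liver, into bile. The 10 genes described here cover those steps. Esterification is covered by Soat1, Soat2 and Lcat, and the freeing of cholesterol from esters in lysosomes and its exit by Lipa and Npc1. Exchange with HDL is covered by Abca1, Abcg1 and Scarb1, and secretion into bile by Abcg5 and Abcg8. The 10 genes were taken by symbol from the 10023 genes of the authors' deposited table, and all 10 were found there. They were chosen by function with the measured log2 fold changes and adjusted p of the treatment comparison known, above all the difference in Soat1. Values of that comparison are therefore a description of these genes and no fresh test of them.

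The study measured liver RNA of golden hamsters (Mesocricetus auratus) by RNA sequencing. It compared 7 samples given the compound DC371739, named by a code in the labels, with 7 samples labelled control. Every sample of both groups is labelled as coming from a high-fat diet. The labels give no dose, route, duration, sex, age or control vehicle. They also leave unsaid whether each sample came from its own animal, so the p-values reflect only how these samples vary, which may be technical.

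Libraries held 13672589 to 23948628 counts, and 3 of them stood apart. Control replicates 6 and 7 and DC371739 replicate 7 held at least 22152239 counts, while the other 11 held at most 16710097. These 3 deeper libraries scored 41.6 to 46.8 on the first principal component of log2 CPM (counts scaled to a common library total), which took 33.3% of the variance, and the other 11 scored -30.6 to -0.97. Between the 3 and the other 11, 46.4% of 12166 genes tested passed an adjusted p of 0.05. Results are given over all 14 libraries, with a term for this library class, and over the 11 shallower libraries (6 DC371739 and 5 control). The tissue label was checked against 11 hepatocyte markers. Albumin alone averaged 80920 ± 5285 FPKM in DC371739 samples and 86480 ± 10230 FPKM in control samples (SD, n = 7 each; FPKM, fragments scaled to gene length and to the library). The 11 markers summed to 114000 to 141500 CPM in DC371739 libraries and 116100 to 154600 CPM in control libraries, and none was called.

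As levels per length, the genes fell into a steep order. By median, Scarb1 and Lcat stood highest, at 230 and 154 FPKM in DC371739 samples and at 166 and 163 FPKM in control samples. Soat1 stood lowest, at 3.65 FPKM in DC371739 samples and 2.16 FPKM in control samples. Between them, Soat2, Lipa and Abcg5 lay at medians of 47.6 to 49.3 FPKM in DC371739 samples and 38.0 to 52.8 FPKM in control samples. Abcg8 followed at 32.6 and 32.9 FPKM, Abca1 at 19.98 and 14.4 FPKM, Npc1 at 18.0 and 14.3 FPKM, and Abcg1 at 9.16 and 6.01 FPKM, with DC371739 first in each pair. Ranges of neighbours in this order overlapped in both groups for Scarb1 and Lcat, for Abca1 and Npc1, and among Soat2, Lipa and Abcg5. In control samples Lipa and Abcg8 overlapped as well. In every library, Abcg1 lay below Npc1 and above Soat1. Soat2 varied little within either group (coefficient of variation 7.39% in DC371739 and 7.62% in control samples), as did Lcat (9.21% in DC371739 and 8.77% in control samples). Abcg8 varied by 6.8% in DC371739 and 13.2% in control samples. Abcg5 varied widely in both (27.4% in DC371739 and 27.5% in control samples), and Lipa by 16.3% in DC371739 and 28.7% in control samples.

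**Figure D1:**
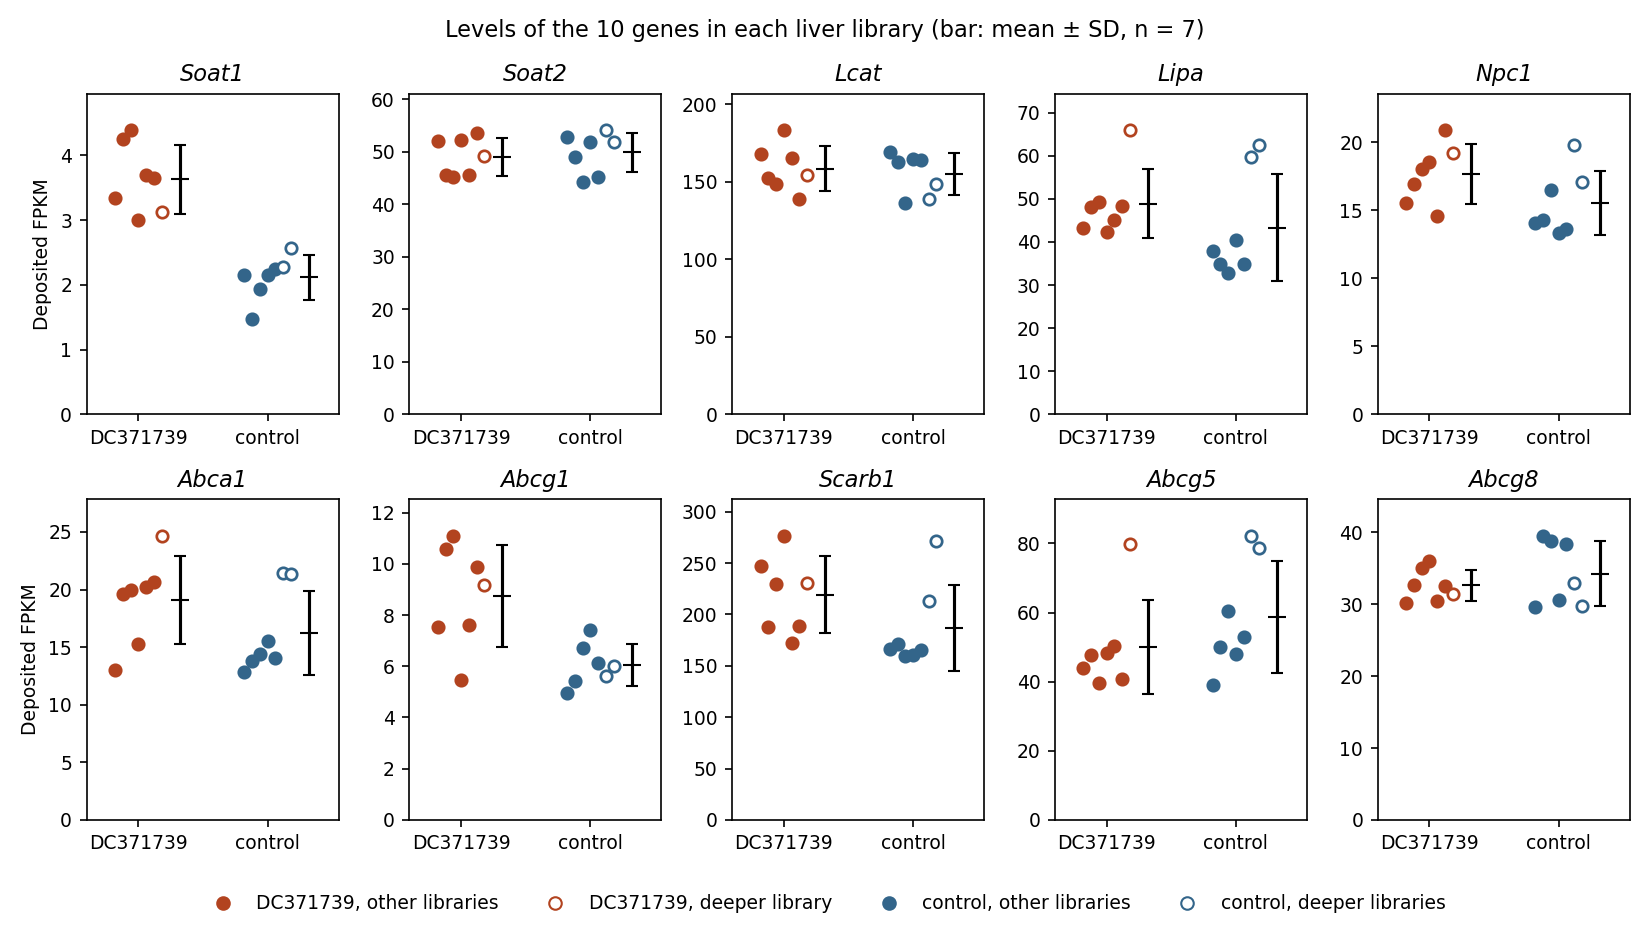
Deposited FPKM of the 10 genes in each library, DC371739 left and control right; open circles are the 3 deeper libraries, and bars give mean ± SD (n = 7). For Soat1 all 7 DC371739 libraries lie above the highest control library, while for Lipa, Abca1 and Abcg5 the open circles lie highest.

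Over all 14 libraries, 1 of the 10 genes, Soat1, rose with DC371739, none fell, and 9 did not pass an adjusted p of 0.05 in edgeR's quasi-likelihood test. Over all 12166 genes tested, 1.85% passed, 1.24% higher and 0.608% lower. The median log2 fold change of the 10 was 0.18, and that of all genes tested was -0.02. All 10 genes passed the expression filter. With the library class term, Soat1, Lipa, Abca1 and Abcg1 passed, all higher, where 5.62% of all genes were called higher and 6.7% lower. Over the 11 shallower libraries Npc1 and Scarb1 passed as well, so that 6 of the 10 were higher and none lower. There 11% of all genes were called higher and 10.5% lower, and the median log2 fold change was 0.32 for the 10 genes and 0.01 for all genes. Since the contrast was known when the genes were chosen, no reading is taken from these counts.

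**Figure D2:**
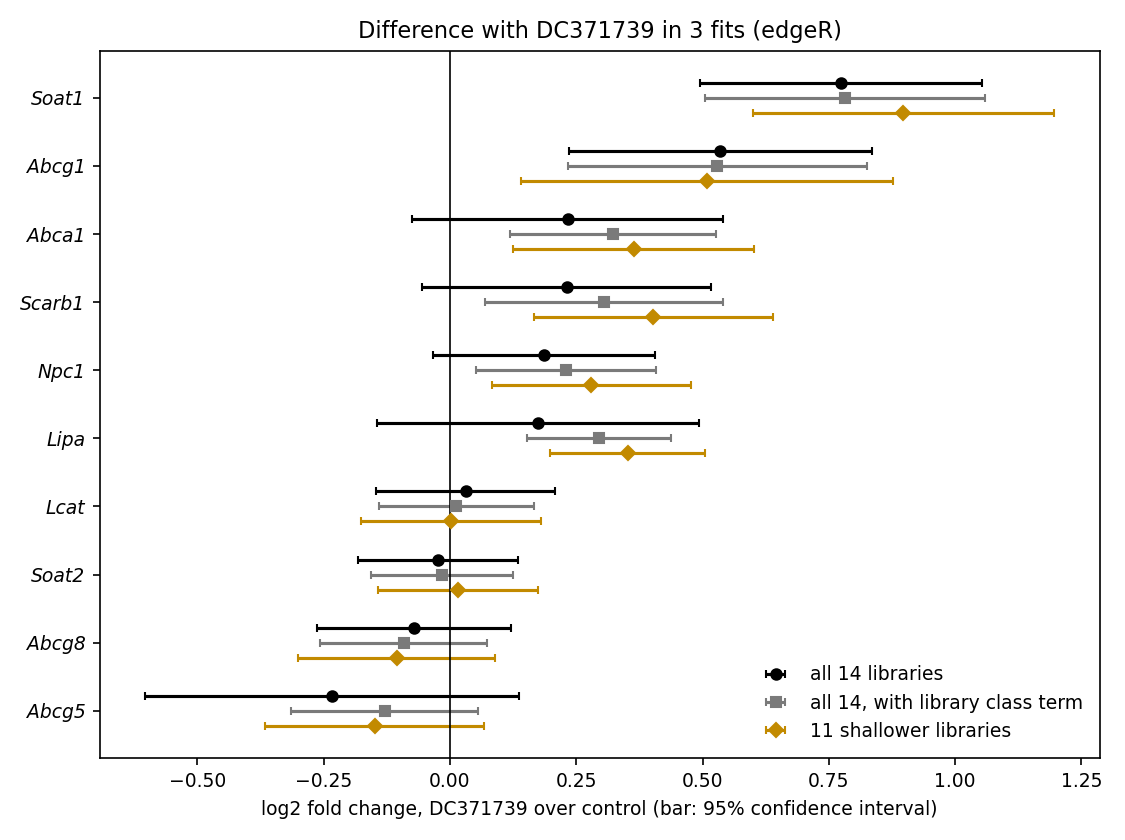
Log2 fold change of DC371739 over control with its 95% confidence interval for each gene in 3 edgeR fits. Soat1 and Abcg1 have intervals above 0 in all 3 fits, Abca1, Scarb1, Npc1 and Lipa in the fit with a library class term and in the 11 shallower libraries, and the intervals of Lcat, Soat2, Abcg8 and Abcg5 hold 0 in all 3.

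Of the esterifying enzymes, Soat1 and Soat2 are acyltransferases of the endoplasmic reticulum that join a long-chain fatty acid to cholesterol. Soat1 is found in many cell types, macrophages among them, and Soat2 mainly in hepatocytes and enterocytes. Lcat is made by hepatocytes and esterifies cholesterol on HDL in plasma. Of these transcripts Soat1 was called and the others were not. Soat1 ranged from 2.996 to 4.39 FPKM with a median of 3.65 FPKM in DC371739 samples, against 1.47 to 2.58 FPKM with a median of 2.16 FPKM in control samples. The groups did not overlap. Over all genes tested, 0.296% had CPM ranges that lay higher without overlap and 0.403% lower. The mean was 3.63 ± 0.53 FPKM in DC371739 and 2.12 ± 0.34 FPKM in control samples (SD, n = 7 each). That was a log2 fold change of 0.77 (SE 0.13, edgeR adjusted p = 0.0155), with a 95% interval of 0.50 to 1.05. The values rest on 44 to 174 counts per library, the fewest of any of the 10 genes. In a whole-liver sample, a change in the share of a cell type and a change in RNA per cell cannot be told apart. In the authors' deposited table the log2 fold change of Soat1 was 0.77 with an adjusted p of 0.0160.

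The size of the Soat1 difference changed little with the deeper libraries. It was 0.78 (SE 0.13, edgeR adjusted p = 0.00451) with the library class term and 0.90 (SE 0.14, adjusted p = 0.00144) over the 11 shallower libraries. Soat1 itself did not differ between the 3 deeper libraries and the other 11 beyond its error (log2 difference 0.05, SE 0.16). The single deeper DC371739 library had 3.12 FPKM, above both deeper control libraries at 2.27 and 2.58 FPKM. Leaving out any 1 of the 14 libraries kept the log2 fold change between 0.71 and 0.83 and the adjusted p between 0.00441 and 0.0486.

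Soat2 ranged from 45.3 to 53.6 FPKM in DC371739 samples, median 49.3 FPKM, and from 44.3 to 54.1 FPKM in control samples, median 51.8 FPKM. The ranges nearly coincided. Its log2 fold change was -0.02 (SE 0.07, edgeR adjusted p = 0.895), with a 95% interval of -0.18 to 0.13, so small differences in either direction remain possible. Lcat ranged from 139 to 183 FPKM in DC371739 samples, median 154 FPKM, and from 136 to 169 FPKM in control samples, median 163 FPKM, a log2 fold change of 0.03 (95% interval -0.15 to 0.21, adjusted p = 0.874). The signs of both values turned under other settings, to 0.02 for Soat2 over the 11 shallower libraries and to -0.0060 for Lcat with limma-voom.

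Within a library, the ratio of Soat1 to Soat2 in FPKM averaged 0.0749 ± 0.0156 in DC371739 and 0.0425 ± 0.00664 in control samples (SD, n = 7 each). It ranged from 0.0573 to 0.0968 with DC371739 and from 0.0300 to 0.0497 in control samples, with no overlap. In all 14 libraries Soat2 was thus the more abundant transcript per length, by a wide margin. Since Soat2 varied little, the difference in this ratio largely restates that of Soat1 and is no separate result.

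Lipa encodes lysosomal acid lipase, which frees cholesterol from the esters of lipoproteins taken up by the cell, and Npc1 encodes the membrane protein that passes this free cholesterol out of the lysosome. Lipa ranged from 42.3 to 65.9 FPKM with DC371739, median 48.1 FPKM, and from 32.7 to 62.5 FPKM in control samples, median 38.0 FPKM. The 3 deeper libraries, at 59.8 to 65.9 FPKM, were its 3 highest in either group. Without them DC371739 samples lay at 42.3 to 49.4 FPKM and control samples at 32.7 to 40.6 FPKM, and the groups did not overlap. In these 11 libraries 4.4% of all genes had CPM ranges higher without overlap and 4.89% lower. The log2 fold change of Lipa was 0.17 (SE 0.15, adjusted p = 0.547) over all 14 libraries, 0.30 (SE 0.07, adjusted p = 0.0143) with the class term and 0.35 (SE 0.07, adjusted p = 0.00531) over the 11, all from edgeR.

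Npc1 ranged from 14.6 to 20.9 FPKM with DC371739, median 18.0 FPKM, and from 13.3 to 19.8 FPKM in control samples, median 14.3 FPKM. The control median was exceeded in all 7 DC371739 libraries, and the control range in 1 of them. Its log2 fold change was 0.19 (SE 0.10, edgeR adjusted p = 0.321), and over the 11 shallower libraries 0.28 (SE 0.09, adjusted p = 0.0432). That call was lost without any 1 of 8 of the 11 libraries, the exceptions being control replicate 3 and DC371739 replicates 1 and 5. The last 267 bases of Npc1 (plus strand) overlap the annotated span of Rmc1 on the opposite strand, and no source used here gives the strand setting of the counting. Whether reads from that stretch were told apart is therefore not known.

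Abca1 moves cholesterol and phospholipid onto lipid-poor apolipoprotein A-I, Abcg1 moves cholesterol to mature HDL, and Scarb1 is the HDL receptor through which hepatocytes take up cholesteryl ester. Abca1 and Abcg1 are known targets of the liver X receptors (LXR), which respond to oxysterols. Abcg1 ranged from 5.45 to 11.1 FPKM with DC371739, median 9.16 FPKM, and from 4.96 to 7.40 FPKM in control samples, median 6.01 FPKM. DC371739 replicate 4 lay within the control range and the other 6 above it. The log2 fold change was 0.54 (SE 0.14), the second of the 10 in size, and its edgeR adjusted p was 0.0565. It passed with the class term (0.53, adjusted p = 0.0254), over the 11 shallower libraries (0.51, adjusted p = 0.0493) and without DC371739 replicate 4 (0.62, adjusted p = 0.0182) or 7 (0.53, adjusted p = 0.0390). The authors' deposited table gave it an adjusted p of 0.0563.

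Abca1 ranged from 13.0 to 24.6 FPKM with DC371739, median 19.98 FPKM, and from 12.8 to 21.5 FPKM in control samples, median 14.4 FPKM. DC371739 replicates 1 and 4, at 13.0 and 15.3 FPKM, lay among the shallower control libraries, and replicates 2, 3, 5 and 6, at 19.6 to 20.7 FPKM, lay above all of those. The deeper libraries were at 21.4 to 24.6 FPKM. Its log2 fold change was 0.23 (SE 0.15, edgeR adjusted p = 0.379) over all 14 libraries, 0.32 (SE 0.10, adjusted p = 0.0398) with the class term and 0.36 (SE 0.11, adjusted p = 0.0326) over the 11. Over the 11, the calls of Abca1 and Abcg1 were each lost without any single library other than control replicate 4 and DC371739 replicates 1 and 4.

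Scarb1 ranged from 173 to 276 FPKM with DC371739, median 230 FPKM, and from 159 to 272 FPKM in control samples, median 166 FPKM. Its highest value was in DC371739 replicate 4, the library with the lowest Soat1 and Abcg1 of that group. The 5 shallower control libraries lay close together at 159 to 172 FPKM, and the 6 shallower DC371739 libraries, at 173 to 276 FPKM, did not overlap with them. Of all genes in these 11 libraries, 4.4% had CPM ranges higher without overlap and 4.89% lower. The nearest Scarb1 values of the groups were less than 1 FPKM apart. The log2 fold change was 0.23 (SE 0.14, edgeR adjusted p = 0.345) over all 14 libraries, 0.31 (adjusted p = 0.0780) with the class term and 0.40 (SE 0.11, adjusted p = 0.0195) over the 11. Lipa, Scarb1 and Soat1 passed over the 11 whichever of these libraries was left out, with adjusted p of up to 0.0219, 0.0495 and 0.00471.

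Abcg5 and Abcg8 encode half-transporters that work only as a pair, exporting cholesterol and plant sterols from the hepatocyte into bile. In the coordinates of the count table, for which no source used here names a genome build, Abcg5 (ENSMAUG00000000867, minus strand) spans 6197742 to 6221667 of scaffold KB708197.1 and Abcg8 (ENSMAUG00000004668, plus strand) 6221846 to 6241473. The genes are thus head to head, with 178 bases between their annotated starts. Soat1 (ENSMAUG00000008590, minus strand) spans 5432272 to 5474058 of KB708154.1 in 16 exon blocks with 2959 exon bases in all.

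Neither half-transporter was called in any of the 3 fits. Abcg8 ranged from 30.1 to 36.0 FPKM with DC371739, median 32.6 FPKM, and from 29.7 to 39.5 FPKM in control samples, median 32.9 FPKM (log2 fold change -0.07, 95% interval -0.26 to 0.12, edgeR adjusted p = 0.707). Abcg5 ranged from 39.5 to 79.7 FPKM with DC371739, median 47.6 FPKM, and from 39.0 to 82.1 FPKM in control samples, median 52.8 FPKM. Its log2 fold change was -0.23 with a 95% interval of -0.60 to 0.14 over all 14 libraries and -0.15, with an interval of -0.37 to 0.07, over the 11.

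The pair parted between the library classes. Abcg5 stood at 78.7 to 82.1 FPKM in the 3 deeper libraries and at 39.0 to 60.5 FPKM in the other 11, a log2 difference of 0.71 (SE 0.10, edgeR adjusted p = 3.64e-05, treatment held in the model). Abcg8 stood at 29.8 to 32.9 FPKM in the deeper libraries, inside the 29.7 to 39.5 FPKM of the others (log2 difference -0.16, SE 0.10). The FPKM ratio of Abcg5 to Abcg8 was 2.50 to 2.64 in the 3 deeper libraries and 1.12 to 1.65 in the other 11. By treatment, over the shallower libraries, it averaged 1.38 ± 0.18 (SD, n = 6) with DC371739 and 1.42 ± 0.14 (SD, n = 5) in control samples. Of the 10 genes, 4 were higher in the deeper libraries (Abcg5, Lipa at 0.64, Abca1 at 0.51 and Scarb1 at 0.36) and none lower, where 22.6% of all genes were higher and 23.8% lower.

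**Figure D3:**
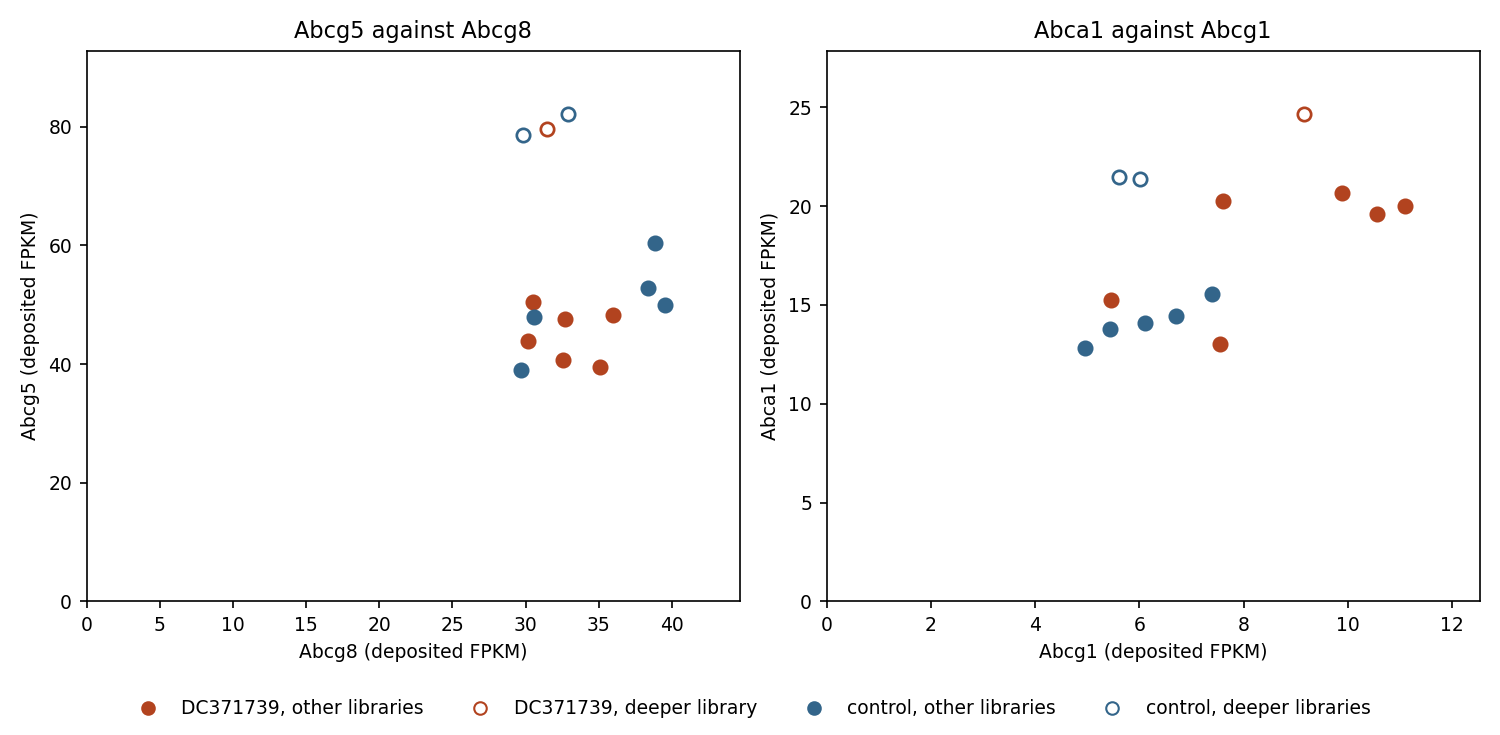
Deposited FPKM of Abcg5 against Abcg8 (left) and of Abca1 against Abcg1 (right), a point per library, open for the 3 deeper libraries. The open points stand at the top in Abcg5 and Abca1, and not in Abcg8 or Abcg1.

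Within groups, 3 relations were tested over the 11 shallower libraries, with group means of log2 CPM subtracted and two-sided exact permutation within groups. The 3 deeper libraries form a cluster too small for a value of its own. Abca1 and Abcg1 had r = 0.68 (exact permutation p = 0.0529, adjusted 0.159) and Spearman's rho = 0.75 (p = 0.0223, adjusted 0.0669), and r was 0.64 without the 2 libraries farthest from the median. Abcg5 and Abcg8 had r = 0.51 (exact permutation p = 0.208, adjusted 0.312) and rho = 0.55 (p = 0.126, adjusted 0.190), and r fell to 0.0449 without 2 libraries, on which that value rests. None passed after adjustment over the 3.

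Soat1, Abca1 and Abcg1 are also expressed by macrophages. Of 20 macrophage markers tested, 3 rose and none fell, beside 1.24% of all genes tested that rose. Their median log2 fold change was 0.36, with 16 values above 0 and 4 below. The 3 that rose were Mpeg1 (log2 fold change 0.80, SE 0.16), Ctss (0.77, SE 0.13) and Laptm5 (0.70, SE 0.11). The 4 below 0, named after their values were seen, were Cd163 (-0.55, edgeR adjusted p = 0.548), C1qa (-0.26, 0.495), C1qb (-0.07, 0.891) and C1qc (-0.06, 0.894). With the class term 10 rose, beside 5.62% of all genes, and over the 11 shallower libraries 8 rose, beside 11%, with none falling in either. None was at 0 in all libraries, and Clec4f, which defines the resident macrophages of the liver, averaged 79.0 ± 15.6 FPKM with DC371739 and 61.8 ± 12.7 FPKM in control samples. Clec4f was not called over all 14 libraries (log2 fold change 0.35, edgeR adjusted p = 0.178). It passed with the class term (0.40, adjusted p = 0.0405) and not over the 11 shallower libraries (0.36, adjusted p = 0.0773). The 20 summed to 1099 to 1719 CPM in DC371739 libraries and to 998.9 to 1446 CPM in control libraries.

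DC371739 replicate 4 had the lowest sum and the lowest Soat1 level of its group. Its sum of 1099 CPM lay inside the control range, and its Soat1 level of 2.996 FPKM lay above all control libraries. In the same library Abcg1 was at 5.45 FPKM, inside its control range. Control replicate 4 had the highest sum of the controls, 1446 CPM, and a Soat1 level of 2.16 FPKM, the median of that group. DC371739 replicate 3, whose sum was close to that at 1481 CPM, had 4.39 FPKM, the highest Soat1 level of its group. DC371739 replicate 2 was high in both, with a sum of 1705 CPM and a Soat1 level of 4.25 FPKM. Within groups over the 11 shallower libraries, Soat1 and the mean of the markers had r = 0.22 (exact permutation p = 0.557, adjusted 0.557) and rho = 0.29 (p = 0.399, adjusted 0.399), and r = 0.24 without the 2 libraries farthest from the median. The single libraries named here were picked after their values were seen. Some pair a high or low sum with a like Soat1 level and others do not, and no reading is taken from them. The part of macrophages in the Soat1, Abcg1 and Abca1 differences was not tested.

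**Figure D4:**
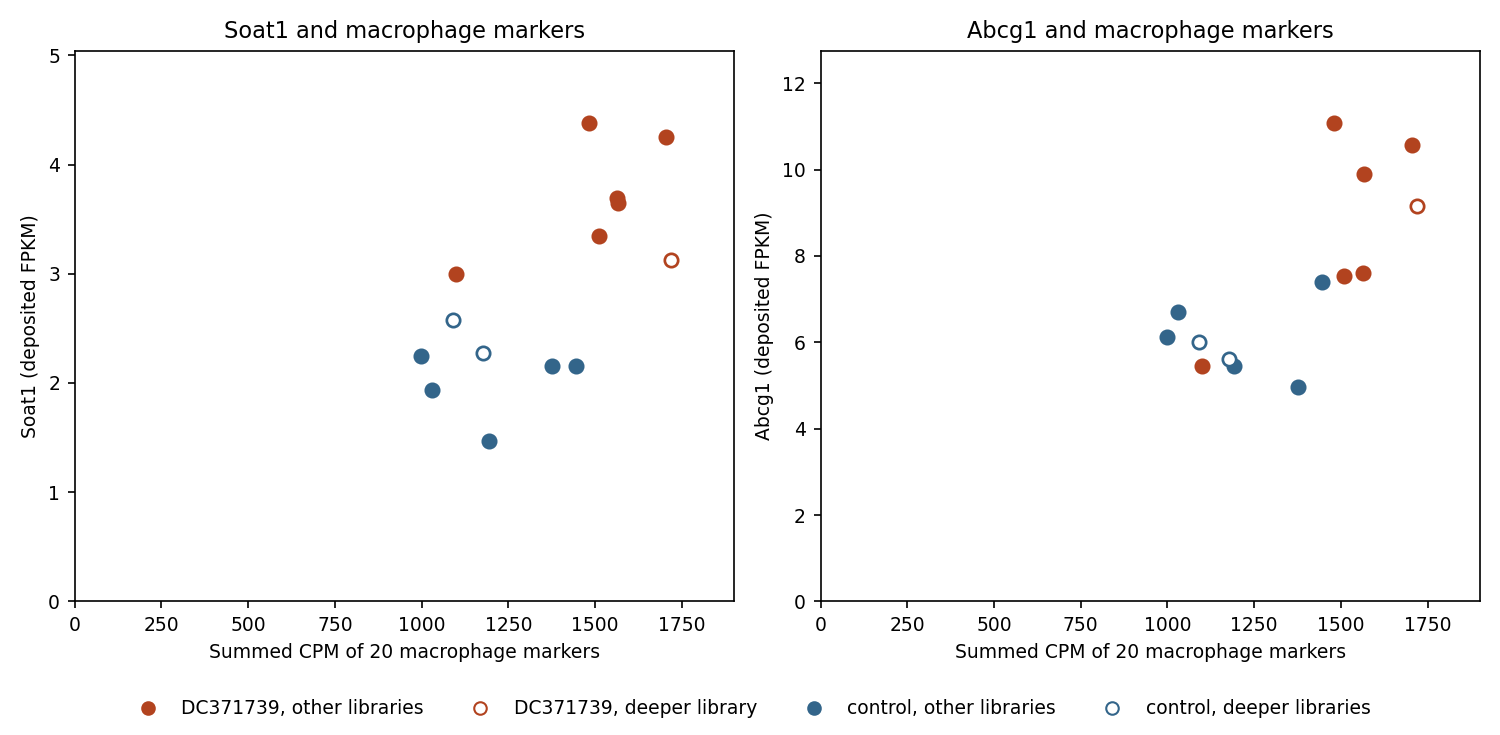
Deposited FPKM of Soat1 (left) and Abcg1 (right) against the summed CPM of 20 macrophage markers, a point per library, open for the 3 deeper libraries. At a sum of 1099 CPM the DC371739 library, picked after its values were seen, lies above the controls for Soat1 (2.996 FPKM). For Abcg1 it lies among them (5.45 FPKM). The DC371739 library at a sum of 1705 CPM, picked in the same way, has 4.25 FPKM of Soat1.

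Markers of other liver cells had no called member over all 14 libraries. Their median log2 fold changes were -0.03 for 11 hepatocyte, 0.13 for 12 endothelial, 0.28 for 12 stellate and fibroblast, 0.23 for 5 cholangiocyte, 0.12 for 7 lymphocyte and 0.14 for 3 neutrophil markers. The smallest p belonged to Tat (0.44, adjusted p = 0.140), Pecam1 (0.71, 0.0565), Col1a2 (0.58, 0.0831), Spp1 (0.45, 0.368), Prf1 (1.08, 0.0512) and Csf3r (1.02, 0.0565), in the order of those lists and by edgeR. Over the 11 shallower libraries 5 of the 12 endothelial, 2 of the 12 stellate and fibroblast, 1 of the 7 lymphocyte and 1 of the 3 neutrophil markers were higher, and none of the hepatocyte or cholangiocyte markers. None of these lists had a lower member there. Of all genes tested in those libraries, 11% were higher and 10.5% lower. Their part in the differences of the 10 genes was not tested.

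Of 55 other genes of cholesterol handling, grouped in 5 lists, 42 could be tested. None rose and 1 fell over all 14 libraries, and their median log2 fold change was -0.01. The class term gave 6 higher and 1 lower, and the 11 shallower libraries gave 8 higher and 3 lower, beside the shares of all genes given above.

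The gene that fell was Ces1e, a liver carboxylesterase, at 65.3 to 84.5 FPKM with DC371739 and 81.9 to 128 FPKM in control samples. Its log2 fold change was -0.48 (SE 0.10, edgeR adjusted p = 0.0326), and -0.54 (adjusted p = 0.00339) over the 11. The other 5 genes of ester hydrolysis did not pass, and the list had a median of -0.13.

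Among 11 genes of intracellular sterol transport (median 0.08), none passed over all 14 libraries. Osbp, an oxysterol-binding exchanger of cholesterol between the endoplasmic reticulum and the Golgi, was at 25.6 ± 3.21 FPKM with DC371739 and 19.3 ± 4.20 FPKM in control samples (SD, n = 7 each; log2 fold change 0.40, edgeR adjusted p = 0.102). Tmem97, a binding partner of Npc1, was at -0.31 (adjusted p = 0.242). Over the 11 shallower libraries 3 of the 11 genes rose and none fell, Osbp among them (0.55, adjusted p = 0.00516).

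The next list held 10 genes of LXR, its partner receptors, coregulators and its other targets (median -0.0041). Its median and counts are therefore not those of LXR targets alone. Ncoa1, a nuclear receptor coactivator, was at 0.49 (edgeR adjusted p = 0.0662). Mylip, an LXR target that marks the LDL receptor for degradation, was at 0.46 (adjusted p = 0.117). Over the 11 shallower libraries both rose (0.55, adjusted p = 0.00149, and 0.50, adjusted p = 0.0433), and Nr1h3, which encodes LXR alpha, fell by 0.20 on the log2 scale (adjusted p = 0.0403), named after its value was seen. Between library classes, 7 of the 10 genes of this list were lower in the 3 deeper libraries and none higher, beside 23.8% of all genes lower and 22.6% higher.

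Among 10 genes of HDL particles and their remodelling (median -0.09), Lipg, the endothelial lipase that acts on HDL phospholipid, was at 0.49 to 4.19 FPKM with DC371739 and 0.12 to 1.17 FPKM in control samples (log2 fold change 1.79, SE 0.50, edgeR adjusted p = 0.0656). Apoa2, an HDL protein, was at -0.38 (adjusted p = 0.160). Over the 11 shallower libraries Lipg passed, higher (1.90, adjusted p = 0.0417), and 1 gene of the list fell, Apoe (-0.40, adjusted p = 0.0183), named after its value was seen. Among 5 genes of bile and gut transport (median 0.16) none passed over all 14 libraries. Hnf4a, a hepatocyte transcription factor, was at 0.48 (adjusted p = 0.0795) and Abcc2, a canalicular organic anion pump, at 0.16 (adjusted p = 0.391). With the class term Hnf4a alone of the 5 rose (0.40, edgeR adjusted p = 0.0359). Over the 11 shallower libraries 2 of the 5 rose and none fell. These were Hnf4a (0.52, edgeR adjusted p = 0.00504) and Abcb11, the bile salt export pump of the hepatocyte, named after its value was seen. Abcb11 was at 0.56 (adjusted p = 0.00263) over the 11 and at 0.23 (adjusted p = 0.462) over all 14.

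**Figure D5:**
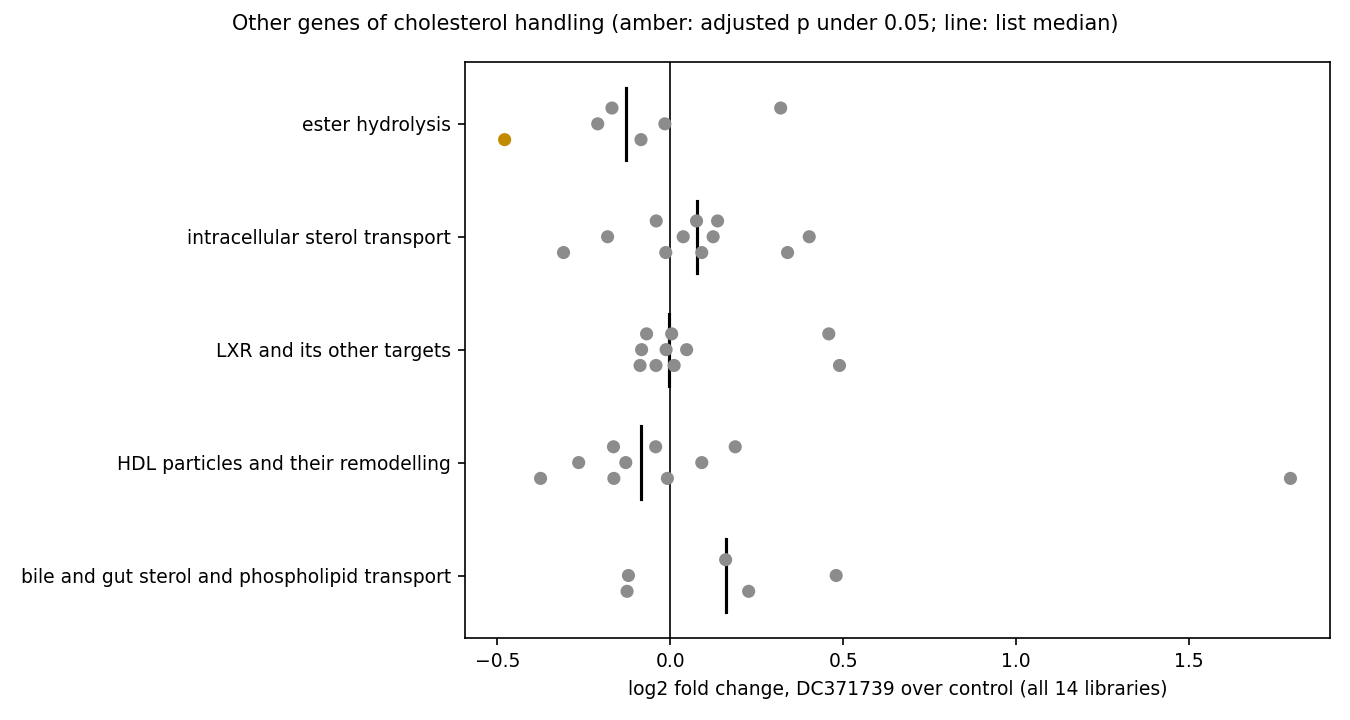
Log2 fold change of DC371739 over control over all 14 libraries for 42 other genes of cholesterol handling, a point per gene, in 5 lists, with a line at each list's median. Ces1e, in amber at -0.48, was the 1 gene called, and Lipg at 1.79 is the point farthest right.

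The genes whose levels varied most like Soat1 were sought among 10010 genes with a symbol, over the 11 shallower libraries with group means of log2 CPM subtracted. Pld4 (Pearson r 0.958), Ripk2 (0.943), Rnf20 (0.928), Brwd3 (0.927) and Dram1 (0.916) came first. Of these, Dram1 alone was called with DC371739, higher (log2 fold change 0.73, SE 0.17, edgeR adjusted p = 0.0409). Pld4 (0.78, adjusted p = 0.0919) and Ripk2 (0.77, adjusted p = 0.112) had somewhat larger values with larger SE (0.24 and 0.26). Rnf20 (-0.04, adjusted p = 0.771) and Brwd3 (-0.39, adjusted p = 0.567) lay below 0. Those nearest to Abcg5 were Elp6 (0.961), D10Wsu102e (0.909), Snrnp70 (0.907), Slx4ip (0.896) and Tcerg1l (0.895), and Abcg8 was not among them. These coefficients share the same 11 libraries and their scaling, and describe the highest values out of many.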

How the data were processed

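For 14 liver libraries the authors deposited raw counts of 22283 Ensembl genes, 1 column per library. Their second deposited table holds FPKM per library, log2 fold changes and p-values for 10023 genes with a symbol. The submitters' processing notes name featureCounts 2.0.0, HISAT2 2.2.1 and edgeR. No source used here gives their settings, the genome build or the use of strand. From the values, each deposited FPKM is the count divided by gene length and 1 constant per library.

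The test across all genes was that of edgeR 4.0.16 under R 4.3.3 (quasi-likelihood test, robust, TMM scaling, default filter with a minimum count of 10, treatment alone in the model), with Benjamini-Hochberg adjustment over all 12166 genes. Log2 CPM used a prior count of 2. No 2 libraries of a group agreed within sampling noise. The 10 genes and the lists were chosen with earlier results of these data known. Of each pathway list, called genes and otherwise the 2 of smallest p are named, and of each marker list up to 3 called genes or otherwise the 1 of smallest p; genes outside this rule are marked in the text as named after their values were seen, apart from Clec4f, named as a defining marker. No sequence is shown, since the reference used here held gene names alone. Alternatives were other scalings, filters and tools (DESeq2 1.42.0, limma 3.58.1), a library class term, and libraries left out.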

Additional observations from a re-analysis of the deposited data

Results flagged for a closer look

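Of 20 sets of 7 values (10 genes in both groups), 2 held a library far from the others by Dixon's test, where chance gives about 1 in 20. Lipa stood at 65.9 FPKM and Abcg5 at 79.7 FPKM in DC371739 replicate 7, the deeper library of its group, against 42.3 to 49.4 FPKM and 39.5 to 50.4 FPKM in the other 6 DC371739 libraries. In control samples the 2 deeper libraries were likewise the highest for both genes.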

How the results depend on the processing

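Over all genes, 225 were called. The number was 850 with DESeq2, 2727 with limma-voom and sample quality weights, 2635 in the 11 shallower libraries and 1499 with the library class term, and 25 to 1069 with 1 library left out. Of the 10 genes described, 1 was called higher, against 2 with upper-quartile scaling, 2 with DESeq2, 5 with limma-voom, 6 in the 11 shallower libraries, 4 with the class term and 1 to 2 with 1 library left out. Replicate numbers recur in both groups, but only 2 of 7 same-numbered pairs deviated together with r over 0.1 (from -0.131 to 0.548). No DC371739 library correlated best with its own number. The highest r, of replicate 7, joined deeper libraries of both groups, so the check also reads library class. It cannot settle whether the numbers pair the samples. With the replicate block 8 genes and 0 of the 10 were called, and Soat1 kept a log2 fold change of 0.77 (edgeR adjusted p = 0.0669). Without that block, Soat1 was called in every setting run. Signs turned for Soat2, at 0.0064 without scaling factors and 0.016 over the 11 shallower libraries, and for Lcat, at -0.0060 with limma-voom and -0.0100 to 0.059 with 1 library left out. No setting called any of the 10 genes lower. The 3 within-group relations kept their sign and did not pass in any setting. The cause of these shifts was not tested. Fits that leave out each of the 11 shallower libraries were added after seeing the data. With 44 to 174 counts, Soat1 carries the largest counting error of the 10.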
